A study of Mus musculus with 12 samples.

Results

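The ESCRT-0 and ESCRT-I complexes act first in sorting ubiquitin-tagged membrane proteins at endosomes. ESCRT-0, a pair of HGS (also called HRS) and STAM, gathers ubiquitinated cargo on the endosome membrane, and ESCRT-I carries it on to ESCRT-II and ESCRT-III, which bud it into the multivesicular body for breakdown in the lysosome. In mammals, ESCRT-I is built on TSG101 and VPS28, takes in 1 of several VPS37 subunits, and is completed by either an MVB12 subunit or UBAP1. In monocytes and macrophages the route is known for the turnover of growth factor and pattern recognition receptors.

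The 10 genes described here were chosen by symbol: Hgs and Stam of ESCRT-0, and Tsg101, Vps28, Vps37a, Vps37b, Vps37c, Mvb12a, Mvb12b and Ubap1 of ESCRT-I. They are 10 of 27588 genes that could be joined across the deposited files, and all 10 were among the 13945 genes with enough counts to be tested. Ubap1 had been picked out because of its difference between psilocybin and vehicle libraries, so its own values against vehicle libraries are given as a description, and the 9 partner genes are set beside it.

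RNA-seq was made from male C57BL/6J mice, from meningeal cells enriched with a magnetic monocyte isolation kit, in 4 groups of 3 libraries. Psilocybin, MDMA and vehicle libraries came from mice held under chronic restraint stress for 18 days and sampled 24 hours after they received psilocybin, MDMA (both psychoactive drugs) or vehicle. Unstressed libraries came from control mice, for which the labels name no injection. The labels give no doses and do not say whether a library came from 1 animal or from a pool, so p-values measure only the spread between libraries, which may be technical. Every library started from 5 ng of total RNA, and total counts ran between 807725 in vehicle library 2 and 5136953 in MDMA library 3.

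The level of a gene is given as CPM, its count scaled to a fixed library size with the TMM factors of edgeR, and a gene passed the test when its adjusted p in edgeR's quasi-likelihood test over all 13945 genes was under 0.05. The stressed libraries were counted on Ensembl gene models and the unstressed ones on RefSeq models, so that each difference against unstressed libraries also holds a difference in the exons counted. Vehicle libraries stood apart: 29.2%, 11.1% and 34.2% of the genes tested had 0 counts in vehicle libraries 1, 2 and 3, against at most 6.93% in any other library. The median SD of log2 CPM over all genes tested was 1.96 in vehicle, 0.33 in psilocybin, 0.62 in MDMA and 0.54 in unstressed libraries. The test nevertheless shares 1 estimate of a gene's spread over all groups. Standard errors and p-values can thus be too large where vehicle libraries are not compared, and too small where they are. Monocyte markers were present at low levels. The summed level of 8 classical monocyte markers was 203 to 731 CPM in psilocybin, 621 to 1100 in MDMA, 397 to 546 in vehicle and 272 to 400 in unstressed libraries. The defining markers Ly6c2, Fcgr1, Itgam and Csf1r had 0 counts in vehicle library 1, Fcgr1 and Itgam had 0 in vehicle library 3, and Fcgr1 had 0 in unstressed library 1. The summed level of 8 choroid plexus epithelium markers was 63800 to 127000 CPM in psilocybin, 20500 to 41100 in MDMA, 17800 to 142000 in vehicle and 14800 to 40200 in unstressed libraries. In such bulk RNA, fewer cells of a type and less RNA per cell cannot be told apart, and the part of these cell mixtures in the values below was not tested.

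The promoters of Ubap1 and of its core partner Tsg101 are shown because the 2 genes lay on opposite sides of the vehicle libraries. RefSeq promoter windows (build GRCm38.p6, 250 bases before to 50 after the start) were at hand for 7 of the 10 genes. Ubap1 lies on the plus strand at chr4:41348746-41349045 and Tsg101 on the minus strand at chr7:46919920-46920219, and both are written 5′ to 3′ with GC boxes (GGGCGG) and CCAAT boxes, on either strand, in capitals.
Ubap1: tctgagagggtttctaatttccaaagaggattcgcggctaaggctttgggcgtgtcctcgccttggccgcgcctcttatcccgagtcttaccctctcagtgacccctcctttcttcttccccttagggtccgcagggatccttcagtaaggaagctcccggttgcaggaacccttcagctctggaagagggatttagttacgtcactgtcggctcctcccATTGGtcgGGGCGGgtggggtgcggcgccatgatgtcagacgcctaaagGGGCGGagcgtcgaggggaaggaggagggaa
Tsg101: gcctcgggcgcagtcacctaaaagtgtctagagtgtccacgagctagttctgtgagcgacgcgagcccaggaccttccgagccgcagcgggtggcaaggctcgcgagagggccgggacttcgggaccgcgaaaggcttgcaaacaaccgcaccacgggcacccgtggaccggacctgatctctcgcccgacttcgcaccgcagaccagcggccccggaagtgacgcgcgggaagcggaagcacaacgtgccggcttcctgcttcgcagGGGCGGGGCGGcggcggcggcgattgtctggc
The Ubap1 window held 2 GC boxes and 1 CCAAT box, which reads as ATTGG here. The Tsg101 window held 2 GC boxes that overlap, no CCAAT box, and 1 ETS motif (CCGGAAG, not capitalised). Of 32851 promoter windows of this length, 35.7% held GGGCGG, 37.4% held CCAAT and 8.86% held CCGGAAG on either strand. Neither window held TATAAA (in 13.6% of windows), CACGTG (7.15%) or TGACGTCA (1.79%).

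Ubap1 was close to absent from the vehicle libraries and present at ordinary levels in the other 9. Ubap1, the ubiquitin-binding subunit that takes the place of an MVB12 protein, had 320, 273 and 433 counts in psilocybin libraries, 330, 161 and 691 in MDMA libraries, 1, 3 and 3 in vehicle libraries, and 280, 524 and 830 in unstressed libraries. Scaled, these were 102, 104 and 103 CPM in psilocybin, 85.9, 61.7 and 122 in MDMA, 0.307, 3.39 and 2.21 in vehicle, and 95.5, 126 and 192 in unstressed libraries. Every vehicle library was below every other library, with no overlap. The 3 psilocybin libraries were closer to one another for Ubap1 than for any other member: the SD of log2 CPM was 0.01, against a median of 0.33 over all genes tested in those libraries.

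Pooled over libraries, Ubap1 was 103 CPM in psilocybin and 1.27 CPM in vehicle libraries, the second from 7 counts with an exact 95% Poisson interval of 0.511 to 2.62 CPM. The pooled ratio was 80.9 (39.1 to 202) for psilocybin over vehicle and 76.9 (37.2 to 192) for MDMA over vehicle. These intervals cover counting error only. The fitted log2 fold change was 5.91 ± 0.83 (SE) for psilocybin over vehicle, 5.71 ± 0.82 for MDMA over vehicle and -6.33 ± 0.84 for vehicle over unstressed. Psilocybin and MDMA libraries were set against the same 3 vehicle libraries, so these first 2 values are not independent of each other. Where vehicle libraries were not involved, Ubap1 showed no difference past the test in edgeR: the log2 fold change was 0.19 ± 0.63 for psilocybin over MDMA (adjusted p = 1), -0.42 ± 0.63 for psilocybin over unstressed (adjusted p = 0.999) and -0.61 ± 0.63 for MDMA over unstressed (adjusted p = 0.999). The RefSeq model of Ubap1 has 6156 exon bases, 1.72 times the 3583 of the Ensembl model, so levels in unstressed libraries are counted over a longer gene.

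**Figure D1:**
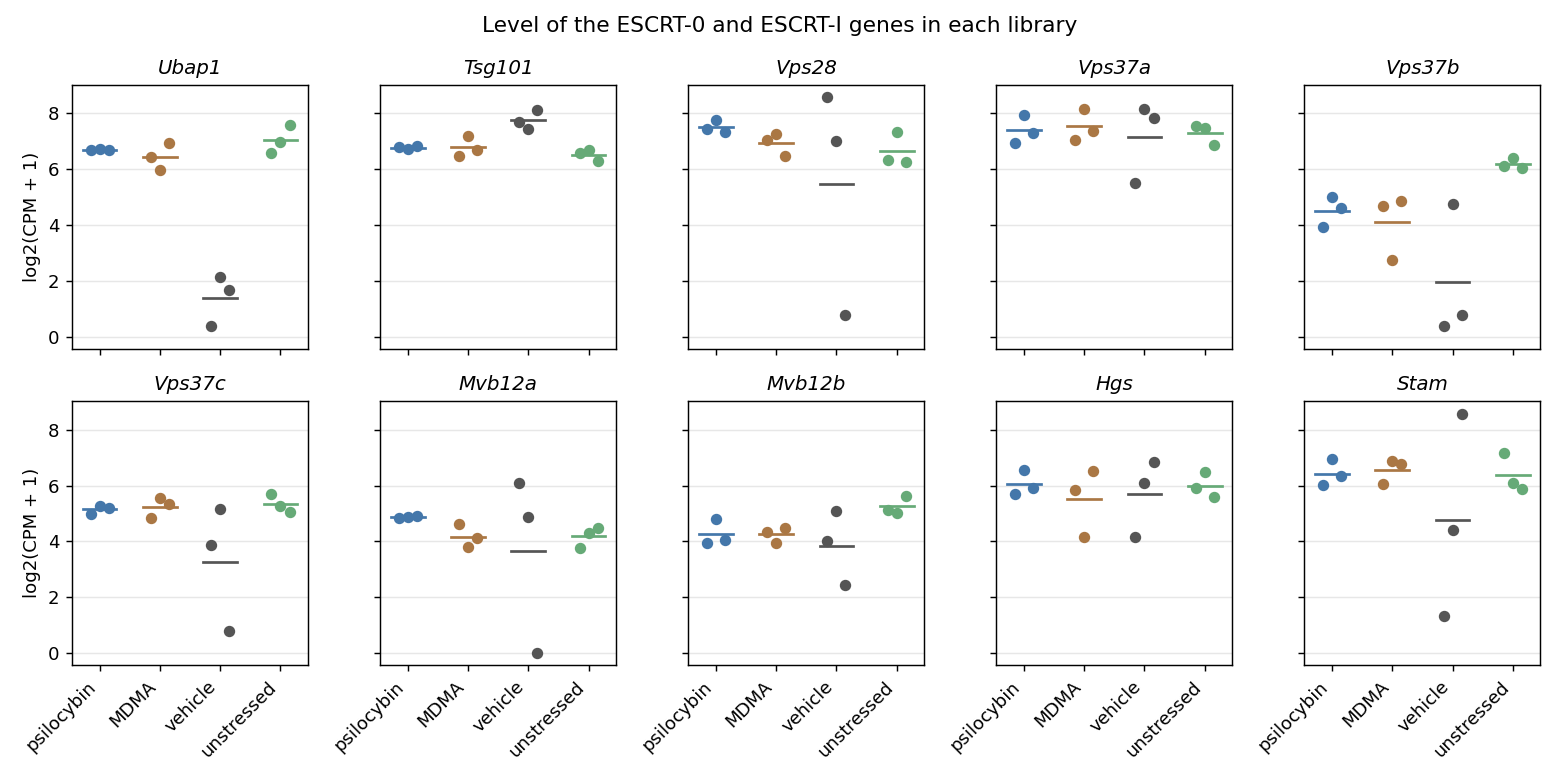
Level of each ESCRT-0 and ESCRT-I gene as log2(CPM + 1), 1 panel per gene, with 1 point per library and a line at the mean of each group of 3. The vehicle points lie below all others for Ubap1 and above all others for Tsg101, and for Vps28, Vps37b, Vps37c, Mvb12a and Stam they run over several log2 units.

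Tsg101 did not go with Ubap1. Tsg101, the core subunit that binds ubiquitin and the short peptide motif carried by ESCRT-0, had 110, 104 and 112 CPM in psilocybin libraries, 88.3, 144 and 103 in MDMA libraries, 205, 174 and 280 in vehicle libraries, and 95.8, 103 and 76.7 in unstressed libraries. Vehicle libraries were above all 9 others, the side opposite to Ubap1. The log2 fold change was -1.02 ± 0.44 for psilocybin over vehicle (edgeR, unadjusted p = 0.0377, adjusted p = 0.279), -0.98 ± 0.44 for MDMA over vehicle (unadjusted p = 0.0445, adjusted p = 0.281) and 1.26 ± 0.45 for vehicle over unstressed (unadjusted p = 0.0132, adjusted p = 0.136). None of the 3 passed the test in edgeR. DESeq2's Wald test gave adjusted p-values of 0.04, 0.0505 and 0.0067 for the same 3 comparisons in that order, so the first and last passed there. Without vehicle library 2, vehicle over unstressed passed in edgeR as well, at 1.44 (adjusted p = 0.033), as did 25.4% of all genes. The Tsg101 counts behind these levels were 344, 273 and 472 in psilocybin, 339, 376 and 580 in MDMA, 669, 154 and 381 in vehicle, and 281, 425 and 332 in unstressed libraries. Of the 10 genes, Tsg101 varied least within the vehicle group, with an SD of log2 CPM of 0.35. The RefSeq model of Tsg101 has 1873 exon bases against 2730 in Ensembl, so levels in unstressed libraries are counted over a shorter gene. This adds to each difference of Tsg101 over unstressed libraries.

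Vps28, the other core subunit and the one that reaches to ESCRT-II, had 541, 572 and 672 counts in psilocybin libraries, 502, 401 and 490 in MDMA libraries, 1250, 114 and 1 in vehicle libraries, and 231, 671 and 324 in unstressed libraries. Its vehicle libraries thus held both the highest and the lowest of the 12 counts. Their levels were 383, 129 and 0.736 CPM, an SD of log2 CPM of 4.32, the widest of the 10 genes. The means were 183 ± 30.9 CPM in psilocybin, 124 ± 33.9 in MDMA, 171 ± 195 in vehicle and 105 ± 49.2 in unstressed libraries (SD, n = 3 each). The log2 fold change was 0.10 ± 1.01 for psilocybin over vehicle (edgeR, adjusted p = 0.979) and 0.70 ± 1.02 for vehicle over unstressed (adjusted p = 0.777).

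The VPS37 subunits, alternative arms of the complex, differed among themselves. Vps37a, whose human protein is the VPS37 form found with UBAP1, had 121, 247 and 155 CPM in psilocybin libraries, 132, 286 and 165 in MDMA, 44.8, 281 and 225 in vehicle, and 186, 178 and 117 in unstressed libraries. Its groups overlapped throughout, and its log2 fold change was -0.07 ± 0.60 for psilocybin over vehicle (edgeR, adjusted p = 0.973) and 0.08 ± 0.60 for MDMA over vehicle (adjusted p = 0.97). The vehicle libraries held 146, 249 and 306 counts of Vps37a and 1, 3 and 3 counts of Ubap1.

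Vps37b was the partner with the lowest vehicle counts. It had 45, 82 and 98 counts in psilocybin libraries, 95, 15 and 159 in MDMA, 1, 23 and 1 in vehicle, and 198, 346 and 280 in unstressed libraries. Vehicle libraries 1 and 3 were lower than all others, while vehicle library 2, at 26 CPM, lay inside the range of the psilocybin libraries, 14.4 to 31.3 CPM. The log2 fold change was 1.43 ± 1.22 for psilocybin over vehicle (edgeR, adjusted p = 0.638), 1.20 ± 1.21 for MDMA over vehicle (adjusted p = 0.692) and -3.07 ± 1.27 for vehicle over unstressed (adjusted p = 0.208). Without vehicle library 2 these became 5.47 (adjusted p = 0.00507), 5.28 (adjusted p = 0.00521) and -7.13 (adjusted p = 0.00224), so that 1 library decided the call. In these fits 24.5%, 25% and 25.4% of all genes passed. All 9 stressed libraries were below the 3 unstressed ones for Vps37b, but it has 1604 exon bases of its own in the Ensembl models and 2512 in RefSeq. Here and below, own bases are those in no other gene's exons, with strand ignored. Whether reads were counted by strand is not known here. The other Ensembl exon bases of Vps37b overlap exons of another gene.

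Vps37c had 95, 99 and 150 counts in psilocybin, 105, 121 and 225 in MDMA, 44, 31 and 1 in vehicle, and 151, 154 and 138 in unstressed libraries. Only vehicle library 2, at 35 CPM, reached the psilocybin range of 30.3 to 37.8 CPM. Its log2 fold change was 1.09 ± 0.94 for psilocybin over vehicle (edgeR, adjusted p = 0.643) and 1.22 ± 0.95 for MDMA over vehicle (adjusted p = 0.58).

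The MVB12 subunits, which fill the place of UBAP1 in other ESCRT-I complexes, did not take a common direction. Mvb12a had 86, 75 and 123 counts in psilocybin, 90, 34 and 92 in MDMA, 217, 25 and 0 in vehicle, and 37, 77 and 93 in unstressed libraries. As for Vps28, vehicle library 1 held the highest count and vehicle library 3 the lowest. Mvb12b had 45, 70 and 66 counts in psilocybin, 73, 38 and 120 in MDMA, 49, 29 and 6 in vehicle, and 99, 131 and 211 in unstressed libraries. Each unstressed library was above every psilocybin and every MDMA library for the level of Mvb12b, on a RefSeq model with 2.60 times the Ensembl exon bases. The log2 fold change for psilocybin over vehicle was -0.16 ± 1.13 for Mvb12a (edgeR, adjusted p = 0.97) and 0.13 ± 0.84 for Mvb12b (adjusted p = 0.966).

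In ESCRT-0, Hgs, the subunit that binds both the endosome lipid and ubiquitin, had 51.4, 94.2 and 59 CPM in psilocybin, 56.8, 16.9 and 91.1 in MDMA, 16.9, 67.7 and 114 in vehicle, and 59, 88.8 and 47.4 in unstressed libraries. Its groups overlapped in every comparison, and the log2 fold changes were 0.05 ± 0.76 for psilocybin over vehicle, -0.26 ± 0.76 for MDMA over vehicle and 0.02 ± 0.76 for vehicle over unstressed (edgeR, adjusted p = 0.987, 0.916 and 0.992). Hgs has nearly the same exons in both annotations, 2980 bases in Ensembl and 2995 in RefSeq, and is the only one of the 10 for which the bases shared with no other gene are also alike. The exons of Vps37a are the same 6379 bases in both, but 6339 of them are its own in Ensembl and 5387 in RefSeq. Stam, the HGS partner that also brings in deubiquitinating enzymes, had 198, 322 and 336 counts in psilocybin, 254, 302 and 607 in MDMA, 5, 18 and 511 in vehicle, and 420, 281 and 247 in unstressed libraries. Its vehicle libraries ran in the reverse order to those of Vps28 and Mvb12a, low in library 1 and highest in library 3 at 376 CPM. The log2 fold change of Stam was -0.58 ± 1.13 for psilocybin over vehicle (edgeR, adjusted p = 0.868), with an SD larger than the mean in vehicle libraries, 133 ± 211 CPM.

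**Figure D2:**
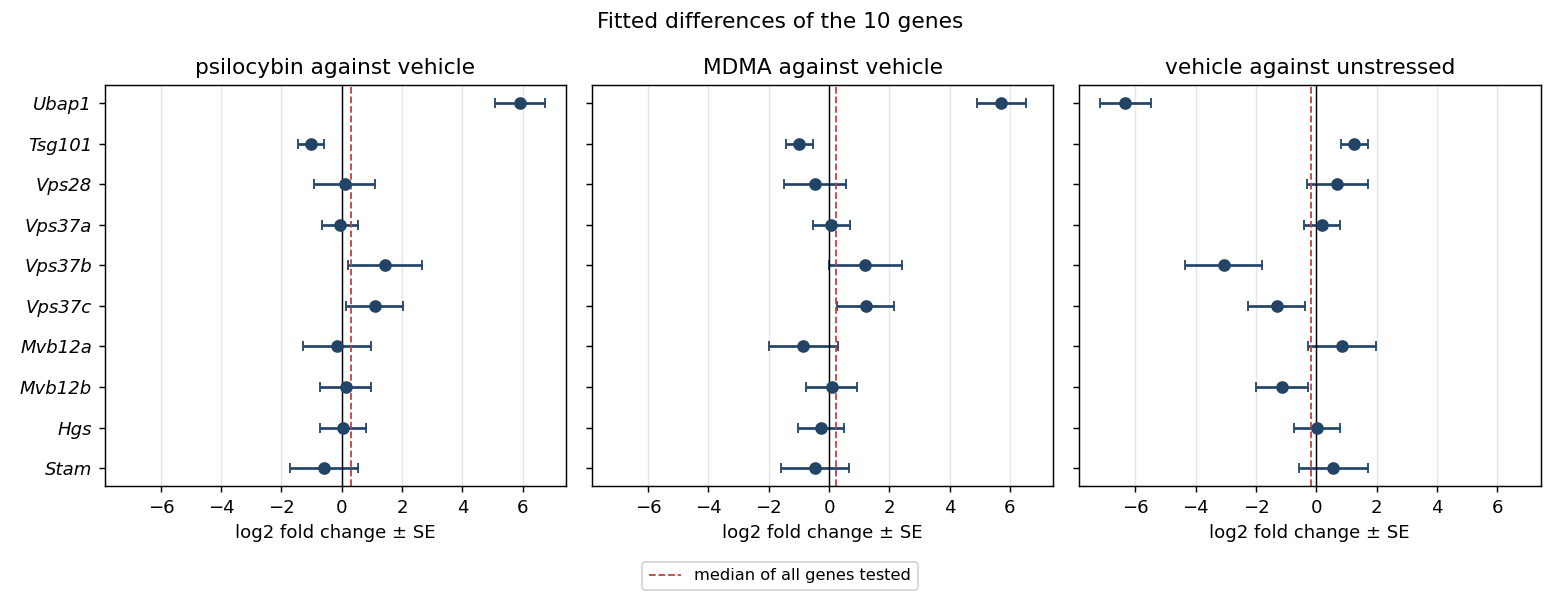
Fitted log2 fold change with its standard error for each of the 10 genes in psilocybin against vehicle, MDMA against vehicle and vehicle against unstressed; the dashed line is the median of all 13945 genes tested. Ubap1 lies at 5.91, 5.71 and -6.33, Tsg101 on the other side of 0 in each panel, and the other partners between -3.07 and 1.43.

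Over the 10 genes, Ubap1 was the 1 gene past the threshold in psilocybin against vehicle (0.0143% of all genes) and in MDMA against vehicle (0.674%), and in vehicle against unstressed (3.43% of all genes, 0.222% higher and 3.21% lower in vehicle). Since Ubap1 was chosen for its vehicle values, nothing is read from these counts. Leaving out any 1 MDMA library took the count in MDMA against vehicle to 0 of the 10 genes, and to 0 of all genes. With replicate number as a block over all 12 libraries, 0 of the 10 genes and 0 of all genes passed in psilocybin against vehicle. The Ubap1 log2 fold change was 6.01 there. None of the 9 partners passed in edgeR in any of the 6 comparisons. At an unadjusted p under 0.05, 1 partner was counted in psilocybin against vehicle (15.9% of all genes), 1 in MDMA against vehicle (16.7%) and 2 in vehicle against unstressed (18.5%), namely Tsg101 in all 3 and Vps37b in the last. No partner was counted in the other comparisons. In DESeq2, 2 of the 10 genes passed in psilocybin against vehicle and 2 in vehicle against unstressed, Ubap1 and Tsg101 each time, where 7.83% and 12.9% of the 13556 genes with an adjusted p passed.

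The partner genes as a list had no firm direction against the vehicle libraries. Their median log2 fold change was 0.05 for psilocybin over vehicle (all genes tested 0.31), with 5 of 9 positive, and -0.26 for MDMA over vehicle (all genes 0.24), with 4 of 9 positive. It was 0.19 for vehicle over unstressed (all genes -0.18), with 6 of 9 positive. With 1 library left out, these 3 medians ran from -0.27 to 0.16, from -0.36 to 0.27 and from -0.63 to 0.37, in the same order. The other 3 medians were 0.05 for psilocybin over MDMA, 0.07 for psilocybin over unstressed and 0.00 for MDMA over unstressed, beside 0.02, 0.01 and 0.04 over all genes. No partner lay wholly above the vehicle libraries in either drug group, whereas 21.1% of all genes did in psilocybin and 16.5% in MDMA libraries. Tsg101 lay wholly below them, as did 2.71% of all genes in psilocybin and 2.39% in MDMA libraries. In vehicle against unstressed libraries Tsg101 was wholly higher, as were 3.56% of all genes, and Vps37b and Ubap1 wholly lower, as were 17.2%.

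Without the vehicle libraries the members were closer together. Between psilocybin and MDMA libraries, where 0% of all genes passed, the 10 log2 fold changes ran from -0.16 to 0.69. Vps28 and Mvb12a lay wholly higher in psilocybin libraries, as did 10.3% of all genes, and no member lay wholly lower, where 6.27% of all genes did. Vps28 averaged 183 ± 30.9 CPM in psilocybin and 124 ± 33.9 CPM in MDMA libraries (log2 0.57 ± 1.02, edgeR adjusted p = 1), and Mvb12a averaged 28.4 ± 0.864 and 17.6 ± 5.32 CPM in the same order (log2 0.69 ± 1.14, adjusted p = 1; SD, n = 3 each). At an unadjusted p under 0.05, 0 of the 10 were counted (0.581% of all genes), and DESeq2 also passed 0.

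Against unstressed libraries, 0 of the 10 genes passed in psilocybin, where 0.0861% of all genes did, or in MDMA, where 0.122% did. These calls share their estimate of spread with the uneven vehicle libraries. In fits of only the 6 libraries compared, 10.3% of all genes passed in psilocybin and 1.76% in MDMA against unstressed. At an unadjusted p under 0.05, 0 of the 10 were counted, where 6.34% of all genes were in psilocybin and 4.98% in MDMA, and DESeq2 also passed 0. Vps37b averaged 23 ± 8.46 CPM in psilocybin and 71.9 ± 10.1 CPM in unstressed libraries (log2 -1.65 ± 1.18, edgeR adjusted p = 0.967), and 19.6 ± 12.1 CPM in MDMA libraries (log2 -1.87 ± 1.19 over unstressed, adjusted p = 0.999). Mvb12b averaged 18.9 ± 6.79 CPM in psilocybin and 38 ± 9.34 in unstressed libraries, a log2 fold change of -1.01 ± 0.84 (adjusted p = 0.984). These 2 genes were wholly lower in each drug group, as were 18% of all genes in psilocybin and 11.5% in MDMA libraries. Tsg101 and Mvb12a were wholly higher in psilocybin than in unstressed libraries, as were 19% of all genes, and no member was wholly higher in MDMA libraries, as were 10.9%. The RefSeq exon bases are 0.69 times the Ensembl ones for Tsg101 and 0.78 times for Mvb12a. Per kilobase of own exons (RPKM, from unscaled library totals), Tsg101 was at 39.4 ± 2.67 in psilocybin and 48.9 ± 8.79 in unstressed libraries. This turns its order around, while the Mvb12a mean stayed higher in psilocybin, at 9.15 ± 0.787 against 7.29 ± 1.8 RPKM. In the fit of only the 6 psilocybin and unstressed libraries, Vps37b passed, at a log2 fold change of -1.64 (adjusted p = 0.0249), as did 10.3% of all genes. For Vps37b this comparison sets 1604 own exon bases in psilocybin libraries against 2512 in unstressed libraries.

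Which members dropped out differed from one vehicle library to the next. Under 10 counts were found for Ubap1, Vps37b and Stam in vehicle library 1, for Ubap1 in vehicle library 2, and for Ubap1, Vps28, Vps37b, Vps37c, Mvb12a and Mvb12b in vehicle library 3, and for none of the 10 genes in any of the other 9 libraries. Ubap1 was the only member that was low in all 3. Of 4070 genes with at least 100 counts in every psilocybin and MDMA library, 8.23%, 1.2% and 22.2% were under 10 counts in vehicle libraries 1, 2 and 3. Among these 4070 were 5 of the 10 members, of which 2, 1 and 2 were under 10 counts in the same libraries, Ubap1 included each time. Only 5 of these 4070 genes (0.123%) had at most 3 counts in every vehicle library: Prpf18, Slc30a4, Trmt10c, Ubap1 and Zfp979, a rule chosen after the Ubap1 counts had been seen. Within the vehicle group the SD of log2 CPM had a median of 1.96 over all genes tested and 2.43 over the 9 partners, while Ubap1 had 1.11. In psilocybin libraries the partners' median SD was 0.45, in MDMA 0.42 and in unstressed 0.37. Markers of other cell types also differed between the vehicle libraries. In vehicle libraries 1, 2 and 3 the choroid plexus sum was 142000, 58600 and 17800 CPM. Ttr, Enpp2, Kcnj13, Folr1 and Sostdc1 fell in that order, while Clic6 rose (455, 650 and 821 CPM). Otx2 (81.3, 163 and 15.4 CPM) and Kl (1200, 576 and 628 CPM) took other orders. The sum of 6 fibroblast markers was 759, 2330 and 8110 CPM, with Pdgfra alone in another order. That of 5 border macrophage markers was 12.6, 75.6 and 407 CPM. Of the border macrophage markers, Pf4, Cd163 and Lyve1 had 0 counts in vehicle library 1 and Pf4, Lyve1 and Cbr2 in vehicle library 3. Endothelial markers summed to 843, 654 and 1270 CPM, an order that none of them took alone. Pecam1 (86.8, 150 and 584 CPM) and Cdh5 were highest in library 3, Cldn5 (235, 41.8 and 100 CPM) and Flt1 in library 1, and Kdr in library 2. Neutrophil markers summed to 115, 148 and 22.1 CPM. Ngp (100, 107 and 6.62 CPM) and S100a8 followed that order, S100a9 rose (10.4, 13.5 and 14 CPM), and Ly6g and Retnlg had 0 counts. The part of any of these cell types in the drop-outs was not tested.

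Levels of different subunits were compared per kilobase of the exon bases that are a gene's own in the annotation of each library (RPKM, from unscaled library totals). In psilocybin libraries the order was Vps28 at 81.8 ± 15, Tsg101 at 39.4 ± 2.67, Ubap1 at 28.4 ± 1.75, Vps37a at 27.4 ± 11 and Hgs at 22.8 ± 8.18 RPKM (SD, n = 3). Then came Vps37b at 14.3 ± 5.7, Vps37c at 12.7 ± 2, Stam at 10.5 ± 3.93, Mvb12a at 9.15 ± 0.787 and Mvb12b at 2.15 ± 0.819 RPKM. Neighbours from Ubap1 to Hgs, and from Vps37b to Mvb12a, lay within each other's spread. Vps28 led and Mvb12b came last in psilocybin, MDMA and unstressed libraries. In MDMA libraries Ubap1 was at rank 4, with 26.4 ± 10.9 RPKM, beside Vps37a at 30.7 ± 9.58. In vehicle libraries it was last, at 0.514 ± 0.485 RPKM, below Mvb12b at 2 ± 1.92, and in unstressed libraries it was at rank 6, with 22.2 ± 7.3 RPKM, between Stam at 22.7 ± 11.9 and Hgs at 21.8 ± 7.96.

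The make-up of the subunit that completes ESCRT-I was steady outside the vehicle group. Ubap1 made up 73%, 70.2% and 71.8% of the summed per-length level of Ubap1, Mvb12a and Mvb12b in psilocybin libraries, 71%, 74.5% and 81.6% in MDMA libraries, 0.365%, 6.82% and 55% in vehicle libraries, and 69.7%, 69.2% and 73.7% in unstressed libraries. Vehicle libraries 1 and 2 were far below the others, with Mvb12a at 92.3% and 66.2%. The 55% of vehicle library 3 rests on 3 counts of Ubap1, 0 of Mvb12a and 6 of Mvb12b. The ratio of Ubap1 to Tsg101 per length was 0.709, 0.762 and 0.699 in psilocybin, 0.742, 0.326 and 0.908 in MDMA, 0.00114, 0.0148 and 0.006 in vehicle, and 0.303, 0.375 and 0.761 in unstressed libraries. It is lower in all 3 vehicle libraries than in any other. Ubap1 was chosen for its vehicle values, which enter this ratio and the Ubap1 shares. Their low vehicle values are therefore a description, and nothing is read from them.

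Among the VPS37 subunits, Vps37a made up 48.6%, 53.8% and 46.9% of the sum of Vps37a, Vps37b and Vps37c in psilocybin libraries, 44.9%, 68.6% and 44.6% in MDMA, 57.7%, 60.4% and 98% in vehicle, and 45.9%, 43.4% and 38.7% in unstressed libraries. Vps37b made up 22.8% to 27.8% in psilocybin and 35.8% to 46% in unstressed libraries. In MDMA library 2, as in vehicle libraries 1 and 3, Vps37b was a minor form, at 5.44% there and at 1.56% and 1.27% in those vehicle libraries.

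**Figure D3:**
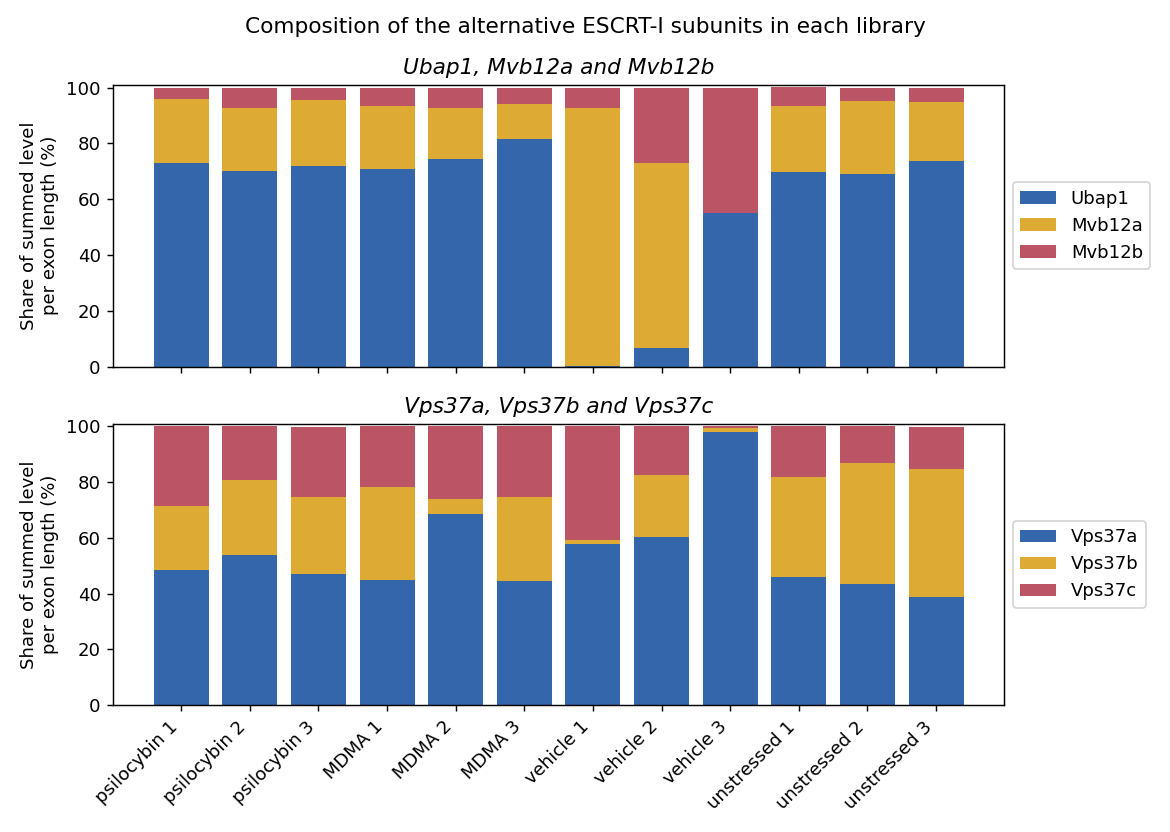
Share of the summed level per exon length, in percent, of Ubap1, Mvb12a and Mvb12b (top) and of Vps37a, Vps37b and Vps37c (bottom), 1 bar per library. The Ubap1 share is 69.2% to 81.6% in the 9 psilocybin, MDMA and unstressed libraries and 0.365%, 6.82% and 55% in the vehicle libraries, while the Vps37a share reaches 98% in vehicle library 3. Ubap1 was chosen for its vehicle values, so its vehicle shares are a description.

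None of the 9 partners was among the 5 genes most like Ubap1 over the 12 libraries, which would hold for most sets of 9 among 12178 genes. Likeness was measured as the mean absolute difference of log2 CPM after each gene was centred on its own mean, over 12178 genes with a mean of at least 5 CPM. The 5 nearest were Rpgr (0.39), Sec16a (0.42), Prpf18 (0.45), Zfp979 (0.47) and Zfp790 (0.49), against a median of 1.83 over all genes. Each had at most 3 counts in every vehicle library. The measure favours such genes, since the vehicle values for which Ubap1 was chosen enter every distance, so nothing further is read from this. Rpgr had 96, 59 and 88 counts in psilocybin libraries and 0, 0 and 0 in vehicle libraries, and Sec16a, an organiser of endoplasmic reticulum exit sites, had 94, 135 and 127 in psilocybin and 0, 3 and 1 in vehicle libraries. Prpf18, a pre-mRNA splicing factor, had 134, 117 and 184 in psilocybin and 0, 2 and 0 in vehicle libraries. Of the partners, Vps37b came nearest, at rank 1088 with a mean difference of 1.12. Vps37c was at rank 2589 (1.43) and Stam at 2899 (1.48). Mvb12b, Vps28, Mvb12a, Vps37a and Hgs lay between ranks 5800 and 8143, and Tsg101 was at rank 11623 (2.50). These ranks rest on the same distances. They describe the levels given above and are no separate sign of which partners move with Ubap1. The order of the nearest genes is not firm: only 2 of the 5 stayed with a prior count of 0.5 or with only the 9 stressed libraries.

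No gene next to Ubap1 on chromosome 4 passed the test. All those compared had at most 2 counts in vehicle library 3. Nudt2 and AI464131 had 0 there, as did 34.2% of all genes tested. The share of all genes with at most 2 counts was not taken, so nothing is read from these low counts. Ubap1 spans bases 41348996 to 41390525 on the plus strand. The 3 nearest tested genes before it were Ube2r2, Ubap2 and Dcaf12, and those after it were Kif24, Nudt2 and AI464131, and none passed the edgeR test in any comparison. Ubap2, a gene of another family despite its name, averaged 38.1 ± 8.46 CPM in psilocybin and 13.6 ± 14.5 CPM in vehicle libraries, a log2 fold change of 1.51 ± 0.96 (adjusted p = 0.497). In MDMA libraries Ubap2 averaged 47.1 ± 20.9 CPM and lay wholly above the vehicle libraries, as did 16.5% of all genes (log2 1.81 ± 0.97, edgeR adjusted p = 0.379). Dcaf12 averaged 73.1 ± 0.587 CPM in psilocybin and 42.5 ± 56 CPM in vehicle libraries (log2 0.80 ± 0.96, adjusted p = 0.761). Its 3 vehicle libraries were at 20.6, 106 and 0.736 CPM. Kif24, the next gene downstream, had 12, 10 and 16 counts in psilocybin libraries and 73, 0 and 1 in vehicle libraries.

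The rest of the sorting pathway was read from a list of 39 genes, of which 38 were joined and 37 tested. In psilocybin against vehicle and in MDMA against vehicle, 0 of the 37 passed in edgeR, 2 each had an unadjusted p under 0.05 (15.9% and 16.7% of all genes), and DESeq2 passed 0 and 2 (7.83% and 9.87% of all genes). Without vehicle library 2, edgeR passed 7 and 8 of them (18.9% and 21.6%), where 24.5% and 25% of all genes passed. The median log2 fold change was -0.14 and -0.15, beside 0.31 and 0.24 for all genes tested. Stam2, the close relative of Stam, averaged 83.7 ± 13.8 CPM in psilocybin, 73.8 ± 9.95 in MDMA and 17.5 ± 27.8 in vehicle libraries (log2 2.31 ± 1.06, adjusted p = 0.302, for psilocybin over vehicle). Vps36, the ESCRT-II subunit that meets VPS28, averaged 54.6 ± 5.83 CPM in psilocybin, 49.2 ± 3.32 in MDMA and 21.6 ± 15.8 in vehicle libraries (log2 1.36 ± 0.73, adjusted p = 0.394, for psilocybin). Gga3, another ubiquitin-binding sorting adaptor, averaged 24.8 ± 13.3, 22.5 ± 10 and 4.89 ± 8.47 CPM in psilocybin, MDMA and vehicle libraries (log2 2.47 ± 1.39, adjusted p = 0.425, for psilocybin).

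Other genes of the list had higher means in vehicle libraries, as Tsg101 did, though none passed and not all lay wholly above the drug libraries. Chmp1a, of the membrane-cutting ESCRT-III, averaged 82.9 ± 3.23 CPM in psilocybin, 76.8 ± 11.9 in MDMA and 209 ± 125 in vehicle libraries (edgeR log2 -1.33 ± 0.52 for psilocybin, adjusted p = 0.216, and -1.44 ± 0.52 for MDMA, adjusted p = 0.164). Vta1, a cofactor of the ATPase VPS4 that takes ESCRT-III apart, averaged 58.3 ± 5.88 CPM in psilocybin, 33 ± 16.4 in MDMA and 119 ± 96.8 in vehicle libraries (log2 -1.84 ± 0.70 for MDMA, adjusted p = 0.187). The vehicle libraries were at 50.9, 75.6 and 229 CPM for Vta1, the first of them below every psilocybin library. Pdcd6ip, which encodes the TSG101-binding protein ALIX, averaged 145 ± 7.3, 163 ± 16.9 and 258 ± 89.5 CPM in psilocybin, MDMA and vehicle libraries (log2 -0.83 ± 0.42 for psilocybin, adjusted p = 0.363). Eea1, a tether of early endosomes, averaged 84.4 ± 9.39 CPM in psilocybin and 216 ± 149 in vehicle libraries (log2 -1.35 ± 0.67, adjusted p = 0.344). Rab5a, the early endosome GTPase, averaged 187 ± 40.1 CPM in MDMA and 319 ± 198 in vehicle libraries (log2 -0.77 ± 0.49, adjusted p = 0.482). For Rab5a the vehicle libraries were at 252, 165 and 542 CPM, the second inside the MDMA range of 160 to 233 CPM. Usp8, a deubiquitinase that binds STAM, averaged 131 ± 3.95 CPM in psilocybin, 112 ± 12.6 in MDMA and 154 ± 75.4 in vehicle libraries (log2 -0.23 ± 0.49 for psilocybin, adjusted p = 0.879). Its vehicle mean rests on library 3, at 241 CPM; vehicle libraries 1 and 2, at 109 and 113 CPM, were below every psilocybin library.

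In vehicle against unstressed, 1 of the 37 passed: Vps25, an ESCRT-II subunit, had 0, 1 and 0 counts in vehicle and 118, 292 and 249 in unstressed libraries (log2 -7.71 ± 1.76, edgeR adjusted p = 0.039). The call was lost without vehicle library 1 or without any 1 of the unstressed libraries, and 7 of the list (18.9%) passed without vehicle library 2, where 25.4% of all genes did. Vps25 was also low in the other stressed libraries, with 6, 3 and 2 counts in psilocybin and 5, 0 and 0 in MDMA. The Ensembl model leaves Vps25 only 539 exon bases of its own, against 1513 in RefSeq, so the difference follows the annotation as well as the stress, and the 2 cannot be told apart here.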

How the data were processed

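Bulk RNA-seq was deposited as whole-number read counts per gene, 1 table per library, and these counts are not normalised per the file headers and the values. Per the submitters' processing notes, the build was mm10, and STAR 2.7.5c and featureCounts 2.0.1 were among the tools, with no order or role given. The stressed files carry Ensembl gene identifiers and the unstressed files RefSeq genes. They were joined to 27588 genes, 26664 by symbol and 924 by position through GENCODE vM21 and RefSeq models, and 3 columns of the series table that belong to no sample used here were left out.

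Counts of all 12 libraries were fitted together in R 4.3.3 with edgeR 4.0.16 (TMM scaling, filterByExpr, quasi-likelihood test, Benjamini-Hochberg adjustment over 13945 genes, threshold 0.05), without a replicate block. DESeq2 1.42.0 (Wald test) was an alternative, beside its size factors in edgeR, no filter on low counts, the replicate block, fits of fewer libraries, each library left out in turn, and only genes whose exons are nearly alike in both annotations. The fit was tested on simulated data with the same spread in every group and without the drop-outs of the vehicle libraries. That test does not show how the fit behaves on the uneven vehicle libraries. Deviations from group means of same-numbered psilocybin and vehicle libraries had r = 0.112, 0.213 and 0.115, each above a set mark of 0.1. No other comparison met this in all 3 pairs, but replicate 2 of psilocybin and unstressed libraries reached 0.318. Libraries with different numbers were not compared and the labels name no pairing. These values therefore do not show that the numbers pair the libraries.

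The members and gene lists were chosen with earlier results of these data known. Named beside the 10 members are every gene of the sorting list past the threshold, the gene of each class with the smallest p in either drug comparison, the 5 genes most like Ubap1 and 3 neighbours on each side.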

Additional observations from a re-analysis of the deposited data

How the results depend on the processing

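Over the alternatives the log2 fold change of Ubap1 against vehicle libraries, and of vehicle over unstressed, kept its sign and stayed between 4.76 and 6.37 (MDMA over vehicle), 4.93 and 6.52 (psilocybin over vehicle) and -6.96 and -5.33 (vehicle over unstressed). Tsg101 also kept its sign in these 3 comparisons, while the Ubap1 calls did not all hold. Members past the threshold in psilocybin against vehicle were 0 with DESeq2's size factors, with the replicate block (Ubap1 6.01, adjusted p = 0.148), in a fit of only the 6 libraries, without vehicle libraries 1 and 3, and with only the 9 stressed libraries, 2 in DESeq2, and 0 to 2 when 1 library was left out. Ubap1 missed the threshold there without any 1 psilocybin library (adjusted p = 0.142 to 0.157) and without vehicle library 1 (0.0641), and Vps37b joined it without vehicle library 2. In MDMA against vehicle they were 0 with the block (Ubap1 5.78, adjusted p = 0.0834), in the 6 libraries, without vehicle libraries 1 and 3 (adjusted p = 0.0531) and with the 9 stressed libraries, and 0 to 2 with 1 library left out, 0 without any 1 MDMA library. In vehicle against unstressed they were 2 in DESeq2, 0 in the 6 libraries, 0 when genes were limited to near-identical exons (where Ubap1 is not tested) and 1 to 3 with 1 library left out. In psilocybin against unstressed they were 1 in the 6 libraries.

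Of the 37 other sorting genes, 2 passed in DESeq2 in MDMA against vehicle, and 0 to 7 and 0 to 8 with 1 library left out in psilocybin and in MDMA against vehicle. In vehicle against unstressed 0 passed with the block, in the 6 libraries, without vehicle libraries 1 and 3 and with near-identical exons, and 0 to 7 with 1 library left out. Against unstressed, 1 passed in DESeq2 and 3 in the 6 libraries for psilocybin, and 1 with no filter, 1 in DESeq2 and 1 in the 6 libraries for MDMA. Only 2 of the 5 genes most like Ubap1 stayed with a prior count of 0.5, and 2 with the 9 stressed libraries. Over all genes, calls ran from 0 to 3536 in psilocybin against vehicle, 0 to 3613 in MDMA against vehicle (both highest without vehicle library 2) and 2 to 3670 in vehicle against unstressed.

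Of 723 fold changes of the 10 genes under an alternative, 97 changed sign, each from a value that had not passed the test; the cause was not tested. With DESeq2's size factors in edgeR, signs turned and the values were for psilocybin over vehicle Vps28 -0.05, Mvb12b -0.04, Hgs -0.21, and for MDMA over vehicle Vps37a -0.11, Mvb12b -0.04, and for psilocybin over MDMA Mvb12b -0.00. With no filter on low counts, signs turned and the values were for psilocybin over unstressed Stam 0.05. With DESeq2's Wald test, signs turned and the values were for psilocybin over vehicle Vps28 -0.04, Mvb12b -0.03, Hgs -0.21, and for MDMA over vehicle Vps37a -0.11, Mvb12b -0.02, and for psilocybin over MDMA Mvb12b -0.01. With the replicate block, signs turned and the values were for psilocybin over vehicle Vps37a 0.04, Mvb12a 0.15, Stam 0.26, and for MDMA over vehicle Stam 0.32, and for psilocybin over MDMA Vps37b -0.15, Mvb12b -0.05, and for vehicle over unstressed Vps37a -0.05, Hgs -0.20, Stam -0.46, and for psilocybin over unstressed Vps37a -0.02, and for MDMA over unstressed Mvb12a -0.12, Stam -0.14. In fits of only the 6 libraries compared, signs turned and the values were for psilocybin over vehicle Hgs -0.05, and for psilocybin over MDMA Mvb12b -0.04. Without vehicle libraries 1 and 3, signs turned and the values were for psilocybin over vehicle Vps37b -0.16, Mvb12a 0.03, Mvb12b -0.77, Stam 2.14, and for MDMA over vehicle Vps37a -0.51, Vps37b -0.35, Mvb12b -0.80, Stam 2.28, and for vehicle over unstressed Stam -2.13. With only the 9 stressed libraries, signs turned and the values were for psilocybin over vehicle Hgs -0.03, and for psilocybin over MDMA Mvb12b -0.02. With 1 library left out in turn, some fold changes took both signs, and their lowest and highest values follow. For psilocybin over vehicle they ran over Vps37a -0.53 to 0.32, Vps28 -0.49 to 1.53, Mvb12b -0.31 to 0.87, Hgs -0.41 to 0.72, Mvb12a -0.75 to 1.05, Stam -1.15 to 3.19. For psilocybin over MDMA they ran over Vps37a -0.55 to 0.21, Stam -0.48 to 0.07, Vps37b -0.23 to 0.51, Mvb12b -0.32 to 0.21, Hgs -0.14 to 0.81, Ubap1 -0.03 to 0.40, Tsg101 -0.25 to 0.17, Vps37c -0.38 to 0.02. For psilocybin over unstressed they ran over Stam -0.31 to 0.48, Vps37a -0.21 to 0.34, Hgs -0.24 to 0.35. For MDMA over unstressed they ran over Vps37c -0.25 to 0.17, Mvb12a -0.22 to 0.21, Vps37a -0.10 to 0.56, Hgs -0.76 to 0.18, Stam -0.08 to 0.66. For MDMA over vehicle they ran over Vps37a -0.38 to 0.55, Hgs -0.84 to 0.44, Mvb12b -0.35 to 0.88, Vps28 -1.05 to 0.95, Mvb12a -1.42 to 0.36, Stam -1.03 to 3.32. For vehicle over unstressed they ran over Vps28 -0.72 to 1.31, Mvb12a -0.35 to 1.46, Vps37a -0.21 to 0.66, Hgs -0.63 to 0.48, Stam -3.18 to 1.15. Values of members at 0 to 6 counts in a vehicle library are limited by counting error, and vehicle library 2 held 807725 counts in all. Where 1 vehicle library was left in a group, it was assumed to vary like the other groups.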
